A study of Mus musculus with 4 samples.

Results

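The response of Myc-CaP cells to norepinephrine was read from 1 pair of RNA-seq libraries, norepinephrine against vehicle, in the line that carries a control hairpin. Myc-CaP cells are mouse prostate cancer cells with the Hi-Myc transgene on an FVB strain background. All cells of the series stably carried short hairpin RNAs, either a negative control (shNC) or hairpins against focal adhesion kinase (shFAK, target gene Ptk2), and were treated for 24 h with 10 µM norepinephrine or with vehicle. The shNC pair had 29948640 counts under vehicle and 27598343 under norepinephrine, and the shFAK pair, which shares no library with it, had 26016936 and 23410486. Whether a line was 1 clone or a pool of transfected cells is not given in the sources used here.

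A gene entered the comparison when its level was at least 1 CPM (counts scaled to the size of the library, with TMM normalization factors) in either shNC library. This rule kept 11973 of the 52636 genes in the table, 10567 of them protein-coding. The 2 kept genes closest to that limit, Gm13502 and Gm37069, were at 1.02 CPM in the higher library, and the 2 closest below it, A430110C17Rik and 1700030J22Rik, were at 0.987 CPM. For each kept gene the log2 ratio of norepinephrine over vehicle is given with an exact 99% counting interval. A gene is called higher or lower when the ratio reached 1.5-fold and the interval left out 0. With 1 library a side, the intervals cover counting error only, and no test of variation between cultures was possible.

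Norepinephrine is the transmitter of sympathetic nerves, which also supply the prostate. It acts on alpha and beta adrenergic receptors, which couple to G proteins. Beta receptors signal through Gs, adenylyl cyclase and cyclic AMP to protein kinase A, and on to the transcription factor CREB, which binds the cyclic AMP response element in promoters. Alpha receptors couple to Gq, which raises calcium and activates protein kinase C, or to Gi, which lowers cyclic AMP.

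Promoter sequences are shown for 3 genes called higher, the neuropeptides Npy and Cck and the nuclear receptor Nr4a2, a textbook target of CREB, and for the called-lower gene Pdpr, which holds a full response element. The sequences are those of RefSeq on GRCm38.p6, 5′ to 3′ on the strand of the gene, and end at the base before the start site for the first 3. Capitals mark TGACG or its reverse complement CGTCA, the core of the response element, and in Pdpr the full element TGACGTCA, in which TGACG and CGTCA overlap.
Npy, chr6:49822460-49822709, plus strand: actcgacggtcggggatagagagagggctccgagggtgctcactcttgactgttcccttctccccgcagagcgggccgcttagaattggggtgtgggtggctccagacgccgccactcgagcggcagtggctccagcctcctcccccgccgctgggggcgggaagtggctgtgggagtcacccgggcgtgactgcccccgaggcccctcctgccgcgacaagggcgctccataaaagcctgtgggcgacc
Cck, chr9:121495695-121495944, minus strand: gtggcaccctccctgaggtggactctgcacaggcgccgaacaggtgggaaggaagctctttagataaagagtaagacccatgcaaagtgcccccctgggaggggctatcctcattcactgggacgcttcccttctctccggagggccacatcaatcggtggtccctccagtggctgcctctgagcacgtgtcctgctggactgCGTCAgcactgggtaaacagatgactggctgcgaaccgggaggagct
Nr4a2, chr2:57124004-57124253, minus strand: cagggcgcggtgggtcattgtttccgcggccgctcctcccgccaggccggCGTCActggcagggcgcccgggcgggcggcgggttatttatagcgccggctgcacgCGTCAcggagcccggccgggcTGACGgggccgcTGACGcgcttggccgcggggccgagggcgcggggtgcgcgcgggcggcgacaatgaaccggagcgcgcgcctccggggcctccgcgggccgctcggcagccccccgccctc
Pdpr, chr8:111094557-111094644, plus strand: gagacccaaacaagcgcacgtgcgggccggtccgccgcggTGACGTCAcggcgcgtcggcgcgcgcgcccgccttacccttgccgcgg

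The Nr4a2 stretch held 4 cores, which begin 200, 144, 123 and 111 bases before the start site. The Cck stretch held 1, at 47 bases, and the Npy stretch held none. Promoter windows from 250 bases before to 50 bases after the start were found for 8338 of the 10567 protein-coding genes kept, by symbol. A gene counted as holding a motif when any of its windows held it on either strand. TGACGTCA was found in 3.91% of these genes, in 3 of 104 called higher (2.88%) and in 6 of 118 called lower (5.08%). TGACG or CGTCA was found in 37.5% of all of them, in 26.0% of those called higher and in 32.2% of those called lower. Over all 32851 windows of the RefSeq table, of any gene, the shares were 1.79% and 20.8%. The 9 called genes with the full element include Pdpr and Zfp874b, which were also called with the gene length trend described below taken off. Zfp874b rested on 58 and 28 counts in shNC (-0.85, interval -1.82 to -0.02) and was at -0.07 in shFAK. It has 1 near-identical copy and shares 737 exonic bases with another gene. A match of letters is a description of the window and not a binding site.

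The labelled cell type was checked against prostate epithelial markers. The luminal factor Foxa1 had 16505 counts under vehicle and 14580 under norepinephrine, and Hoxb13, a prostate homeobox factor, had 1095 and 1321. Other defining genes of the luminal epithelium were near 0 in these libraries: Epcam had 6 and 2 counts, the E-cadherin gene Cdh1 3 and 0, and Krt18 3 and 1. The mesenchymal filament gene Vim had 46449 and 42341 counts. Of the luminal markers, Folh1, which encodes prostate-specific membrane antigen, was called higher on 70 and 96 counts (0.60, interval 0.02 to 1.22). It was no longer called with the gene length trend described below taken off (0.55), and it was at -0.06 in shFAK.

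Markers of other cell types were read in both shNC libraries. The leukocyte genes Ptprc, Adgre1, Itgam and Cd3e and the fibroblast genes Dcn, Lum and Col3a1 had no counts. The summed level of the 13 leukocyte markers was 16.4 CPM under vehicle and 20.9 under norepinephrine, nearly all of it Cd14. The endothelial markers summed to 1.43 and 2.09 CPM. The fibroblast markers summed to 9.79 and 7.75 CPM, nearly all of it Pdgfra, with 276 and 198 counts. Col1a1 had 11 and 4 counts. The neural markers summed to 89.5 and 98.0 CPM, most of it from the neuronal splicing factor Rbfox3, with 1965 and 2049 counts. Mbp had 478 and 371 counts and Map2 148 and 123, while Snap25 had none. In RNA from a whole culture, fewer cells that express a gene and less of its RNA per cell cannot be told apart.

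Most genes moved little. The median log2 ratio of the 11973 genes was 0.01, the middle 90% lay between -0.49 and 0.46, and 94.6% were within 1.5-fold. In all, 447 genes were called (3.73%), of which 206 were higher (1.72%) and 241 lower (2.01%). Another 205 genes were past 1.5-fold with an interval that included 0. Among protein-coding genes 137 were called higher and 166 lower. Higher calls made up 46.1% of the calls and lower ones 53.9%; with the libraries scaled by total count alone the split was 32.8% and 67.2%.

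The ratio followed the length of the gene. Across the kept genes the Spearman correlation of the log2 ratio with summed exon length was -0.51, and it was -0.59 among protein-coding genes. Genes are not independent replicates, and all points share the same 2 libraries. The median ratio went from 0.24 in the shortest length decile, with a median length of 736 bases, to -0.28 in the longest, with a median length of 11803.5 bases, and was close to 0 in decile 6. In the shortest decile 89 genes were called higher and 31 lower, and in the longest none were called higher and 82 lower. Genes called higher had a median length of 1318.5 bases and those called lower 6638 bases.

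**Figure D1:**
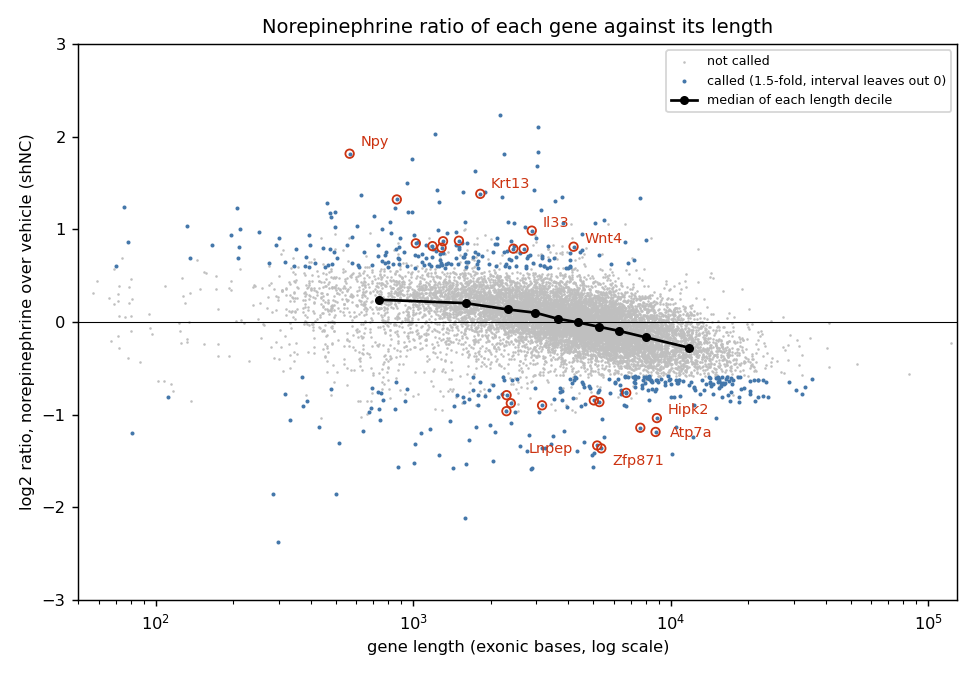
Log2 ratio of norepinephrine over vehicle in shNC against gene length in exonic bases (log scale), 1 point a gene, for 11973 genes. Blue points met the call rule, red circles mark the 24 genes described one by one, and the black line joins the medians of the 10 length deciles, which fall from 0.24 to -0.28.

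The same correlation was 0.39 with transcript GC content, -0.44 with the genomic span of the gene and -0.002 with mean level. In the shFAK pair the correlation with length was -0.31, and the decile medians went from 0.01 to -0.16. Genes of 10000 bases or more took 8.97% of the counts in shNC vehicle and 7.15% in shNC norepinephrine, against 10.3% and 9.5% in shFAK. Genes under 1000 bases took 4.94% and 5.89% in shNC and 4.38% and 4.59% in shFAK. The shNC norepinephrine library thus had the lowest share of long genes and the highest share of short genes of the 4. RNA integrity values and fragment sizes were not used here, so their part in the trend was not tested.

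**Figure D2:**
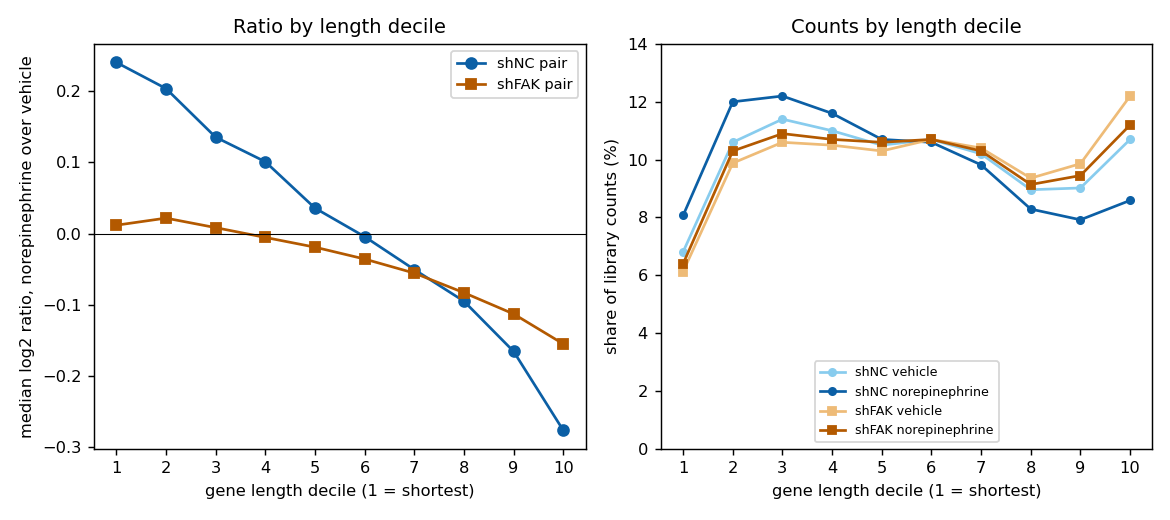
Left, median log2 ratio in each gene length decile for the shNC pair (blue circles) and the shFAK pair (orange squares); right, the share of each library's counts that fell on each decile, in percent. The shNC norepinephrine library stands above the others in deciles 1 to 5 and below them in deciles 6 to 10, by little in deciles 5 and 6.

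Each ratio is therefore also given with a smooth curve of the log2 ratio against length taken off. Under this correction 120 genes were called higher (1.0%) and 176 lower (1.47%). Of the genes called without it, 93 of the 206 higher and 121 of the 241 lower were still called. The corrected ratio still had a Spearman correlation of 0.30 with GC content and -0.10 with genomic span.

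The genes with the largest ratios are described for protein-coding genes with a mean of at least 5 CPM, no near-identical copy in the annotation, and a call both with and without the length trend. With predicted-gene symbols passed over there were 24 such genes higher and 19 lower, and the first 12 on each side by size of the ratio are given.

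Npy encodes neuropeptide Y, a peptide that sympathetic neurons release with norepinephrine. The gene (ENSMUSG00000029819, mm10 chromosome 6, 49822710 to 49829507, plus strand) went from 66 counts under vehicle to 213 under norepinephrine in shNC, and from 115 to 289 in shFAK. Both norepinephrine libraries were above both vehicle libraries. In shNC this was a 3.52-fold higher level, a log2 ratio of 1.82 (interval 1.33 to 2.40), or 1.60 with the length trend taken off. In shFAK the log2 ratio was 1.42 (1.02 to 1.86).

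Cck encodes the peptide cholecystokinin. It had 482 and 791 counts in the shNC pair and 2781 and 3251 in the shFAK pair. Its log2 ratio was 0.87 in shNC (0.66 to 1.09) and 0.33 in shFAK. Its vehicle level was 16.4 CPM in shNC and 105 CPM in shFAK, a wider gap than that between the treatments in either line. With genomic span taken off besides length and GC, its shNC ratio was 0.57 and it was no longer called. Nrtn, which encodes neurturin, a ligand of the GDNF family that sustains neurons, had 466 and 753 counts, a log2 ratio of 0.85, and 359 and 475 in shFAK (0.50). Nrtn was no longer called once GC content was taken off with length, and its lowest ratio over the settings tried was 0.26.

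Il33 encodes the alarmin cytokine interleukin-33. In shNC it had 304 counts under vehicle and 541 under norepinephrine, and in shFAK 799 and 1295. The log2 ratios were 0.99 (0.72 to 1.26) in shNC and 0.80 (0.63 to 0.97) in shFAK. With the length trend taken off the shNC ratio was 0.91. Mgp, which encodes matrix Gla protein, an inhibitor of calcification, had 348 and 551 counts in shNC and 138 and 240 in shFAK. Its log2 ratios were 0.82 (0.57 to 1.08) and 0.89 (0.50 to 1.31). Npy, Il33 and Mgp were the only 3 of the 24 qualifying higher genes that were called higher in both pairs.

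Wnt4, which encodes a secreted Wnt ligand, had 2068 and 3253 counts in shNC, a log2 ratio of 0.81 (0.71 to 0.92), and 4138 and 5394 in shFAK (0.48). Krt13, a keratin of the upper layers of stratified epithelia, had 119 and 281 counts in shNC and 118 and 160 in shFAK. The vehicle levels of Krt13 were 4.04 and 4.47 CPM in the 2 lines, and the norepinephrine levels were 10.7 and 6.5. Its log2 ratios were 1.38 (0.99 to 1.82) and 0.53 (0.08 to 1.01). Acyp2, a muscle-type acylphosphatase, had 84 and 191 counts in shNC, a log2 ratio of 1.32 (0.86 to 1.85), while shFAK had 103 and 98 counts and a ratio of 0.03 (-0.51 to 0.57). The difference of the Acyp2 ratios between the lines was not tested.

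Cebpb, which encodes a basic leucine zipper transcription factor, had 1922 and 3162 counts in shNC (0.88, interval 0.77 to 0.99) and 1886 and 2127 in shFAK (0.28). Cebpb shares 312 exonic bases with another annotated gene, and a library without strand marks cannot assign reads there. The last 3 higher genes were Cdc42ep5, an effector of the GTPase Cdc42, with 340 and 532 counts (0.80), Unc119, a chaperone for lipid-anchored proteins, with 314 and 488 (0.79), and Ier5l with 1834 and 2840 (0.79). In shFAK their log2 ratios were 0.50, 0.37 and 0.30. Cebpb, Cdc42ep5, Unc119 and Ier5l, like Nrtn, were no longer called with length and GC taken off. Npy, Krt13, Acyp2, Il33, Mgp and Wnt4 were called in each of 13 alternative settings that kept the 1.5-fold threshold. The changes of filter, the protein-coding and copy settings and the length trend alone could not lose these calls, given how the genes were chosen. Only the other scalings, the prior counts and the trends with GC or span could.

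**Figure D3:**
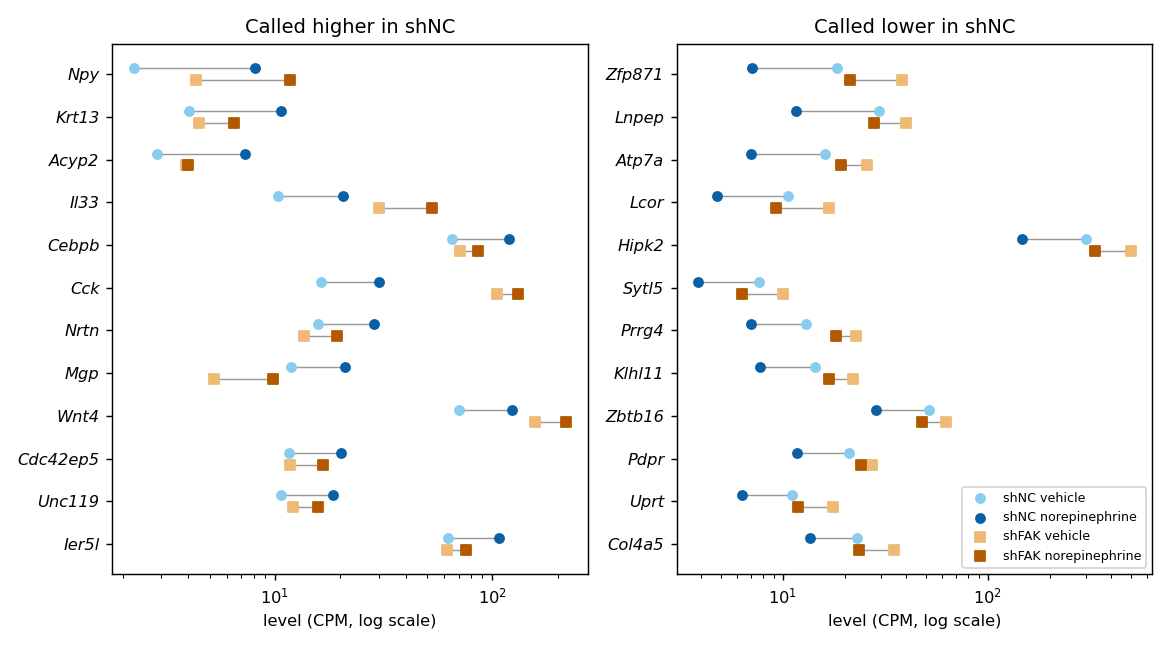
Level of each described gene in the 4 libraries, in CPM on a log scale, shNC as circles and shFAK as squares, pale for vehicle and dark for norepinephrine; each point is 1 library. The norepinephrine point lies to the right of its vehicle point for all 12 genes on the left, Acyp2 in shFAK being at almost equal levels, and to the left for all 12 on the right.

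Of the lower genes, the zinc finger gene Zfp871 (chromosome 17, 32771236 to 32788287, minus strand) had 538 and 186 counts in shNC and 1004 and 524 in shFAK, vehicle first. Its log2 ratios were -1.36 (-1.70 to -1.06) and -0.83 (-1.04 to -0.64). Lcor, a ligand-dependent corepressor of nuclear receptors, had 313 and 126 counts in shNC (-1.14) and 444 and 228 in shFAK (-0.85). Zbtb16, which encodes the repressor PLZF, had 1518 and 746 counts (-0.86) and 1642 and 1176 (-0.38).

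Hipk2, a nuclear serine/threonine kinase, had the most counts of the 12, with 8806 under vehicle and 3843 under norepinephrine in shNC. Its log2 ratio was -1.04 (-1.11 to -0.96), -0.83 with the length trend taken off, and -0.58 in shFAK on 13147 and 8214 counts. Lnpep, the membrane aminopeptidase that cleaves oxytocin, had 864 and 306 counts in shNC (-1.33) and 1058 and 687 in shFAK (-0.52). Atp7a, a copper transporter, had 473 and 185 (-1.19) and 681 and 474 (-0.42). Sytl5, an effector of the vesicle GTPase Rab27, had 224 and 102 (-0.96) and 263 and 156 (-0.65).

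The other lower genes were Prrg4 (-0.90), which encodes a membrane Gla protein, Klhl11 (-0.88), an adaptor of cullin ubiquitin ligases, Pdpr (-0.85), a regulator of pyruvate dehydrogenase phosphatase, Uprt (-0.79) and the type IV collagen chain gene Col4a5 (-0.76, on 677 and 356 counts). In shFAK these were between -0.18 (Pdpr) and -0.58 (Col4a5). Pdpr shares 169 exonic bases with another gene. All 12 lower genes were called in each of the 13 settings that kept the 1.5-fold threshold. Of these settings, only the other scalings, the prior counts and the trends with GC or span could lose a call.

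The shFAK pair gives a reading in libraries that entered the shNC calls only through the scaling, in a line with another hairpin. In that pair 82 of the 11973 genes were called higher (0.685%) and 49 lower (0.409%). Of the 206 genes called higher in shNC, 147 (71.4%) had a ratio above 0 in shFAK, against 38.6% of all genes, and their median was 0.76 in shNC and 0.18 in shFAK. Of the 241 called lower, 214 (88.8%) were below 0 in shFAK, against 61.4% of all genes, with medians of -0.74 and -0.29. Both pairs called 15 genes higher, which is 7.28% of the shNC list and 18.3% of the shFAK list, and 12 genes lower, which is 4.98% and 24.5%. The ratio went down with gene length in both pairs, and the part of that trend in these counts was not tested.

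Without genes that have a near-identical copy and with a mean of at least 5 CPM, 57 of 63 higher genes and all 115 lower genes had the same sign in shFAK. Their shFAK medians were 0.23 and -0.32, against 0.66 and -0.65 in shNC. Among those also called in shNC with the length trend taken off, 23 of 24 higher and 21 of 21 lower genes had the same sign. Their shFAK medians were 0.28 and -0.39. The shFAK ratios had no length trend taken off, and over all kept genes their medians were -0.11 and -0.16 in length deciles 9 and 10. The share of each sign among all genes under these filters was not computed, and the part of the length trend was not tested. Of the 63 higher and 115 lower genes, 61 and all 115 had a smaller ratio in size in shFAK than in shNC. The genes were chosen for a large ratio in shNC, so this comparison of sizes is a description.

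**Figure D4:**
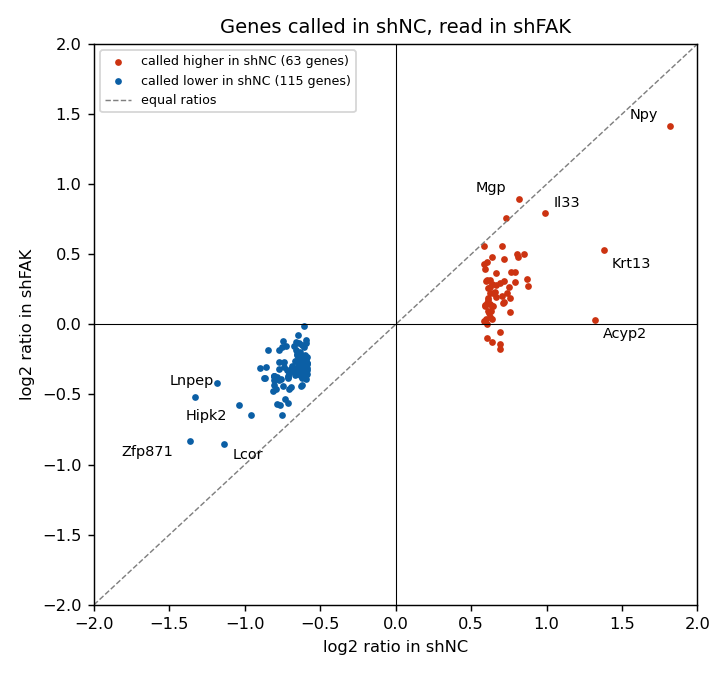
Log2 ratio of norepinephrine over vehicle in shFAK against that in shNC, for 63 genes called higher (red) and 115 called lower (blue) in shNC with no near-identical copy and a mean of at least 5 CPM; the dashed line marks equal ratios. All 115 lower genes lie below 0 in shFAK, 57 of the 63 higher genes lie above 0, and most points lie between 0 and the dashed line.

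Genes called in both pairs in the same direction, with a mean of at least 5 CPM, numbered 8 higher and 6 lower. Besides Npy, Il33 and Mgp, the higher ones with the largest ratios were Hba-a1, a hemoglobin gene with 239 and 454 counts in shNC and 347 and 487 in shFAK (1.08 and 0.59), and Gm10705 and Rpl17-ps10. These have 1, 8 and 12 near-identical copies, so their counts are uncertain. The lower ones included Zfp871, Lcor, Sytl5 and Farp2, a guanine exchange factor with 194 and 102 counts in shNC and 345 and 205 in shFAK (-0.76 and -0.64). Farp2 shares 1013 exonic bases with another gene. The mitochondrially encoded mt-Nd4l had 258 and 43 counts in shNC and 104 and 56 in shFAK (-2.37 and -0.77), and it has a near-identical copy.

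The pathway of the agent itself was then followed through gene lists, each read against the 1.72% of all genes called higher and the 2.01% called lower. At the level of receptors, Adra1b, a Gq-coupled receptor, had 291 counts under vehicle and 285 under norepinephrine (0.13, interval -0.19 to 0.44). Adra2a, a Gi-coupled receptor, had 30 and 35 (0.36, -0.58 to 1.36). The remaining receptor genes reported here, Adrb1, Adrb3, Adra1a, Adra1d, Adra2b and Adra2c, were at 3 counts or fewer in either shNC library, at which no ratio can be read.

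Of the transducers, none of 11 G protein genes and none of 12 genes for adenylyl cyclases, PKA subunits and anchors was called. Their medians were 0.09 and -0.33, or 0.06 and -0.10 with the length trend taken off. Gnb2, a G protein beta subunit, had 34900 and 38849 counts (0.31), and Gnaq, the Gq alpha subunit, 1029 and 753 (-0.29). The anchoring protein gene Akap13 had 1182 and 759 counts, a log2 ratio of -0.48 that became -0.07 with the length trend taken off. None of 10 genes for receptor desensitisation and cyclic AMP breakdown was called (median -0.03). Arrb1, which encodes an arrestin, had 2015 and 1416 counts (-0.35) and Arrb2 951 and 970 (0.19).

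Of 10 CREB family factors and coactivators, 1 was called lower, the acetyltransferase gene Ep300, with 2310 and 1319 counts (-0.65). It was not called with the length trend taken off (-0.32), and the list's median moved from -0.19 to 0.04. Of 17 genes induced by cyclic AMP and CREB, 2 were called higher and 13 were above 0, and the median was 0.09, against 0.01 for all genes. Nr4a2 had 336 and 479 counts, a log2 ratio of 0.67 (0.40 to 0.94) that stayed at 0.67 without the length trend, and 338 and 360 in shFAK (0.19). Id3, an inhibitor of basic helix-loop-helix factors, had 346 and 466 (0.59) and was not called without the trend (0.43). Fosb, an AP-1 subunit, had 89 and 51 counts (-0.62, interval -1.33 to 0.02).

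Of 24 immediate early and ERK feedback genes, 1 was called, Klf2, a zinc finger factor with 192 and 283 counts (0.71). It was not called with the trend taken off (0.56). Ier2 had 1928 and 2478 counts (0.52) and Fos 50 and 64 (0.50, -0.21 to 1.25). The medians of the list were 0.08 and, without the trend, 0.01. Genes of the circadian clock included 1 called of 14, the output factor Dbp, with 64 and 109 counts in shNC (0.91, interval 0.33 to 1.54) and 58 and 54 in shFAK (-0.00). Dbp shares 539 exonic bases with another gene and has a near-identical copy.

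Only 4 of 22 neuropeptide and neuroendocrine genes reached 1 CPM in either shNC library, of which Npy and Cck were called. No counts were found for 10 of the 22 in either shNC library. Uchl1, a neuronal ubiquitin hydrolase, had 20330 and 22571 counts (0.31) and Ncam1, a neural adhesion molecule, 1787 and 1417 (-0.17). Of 11 cytokines and chemokines, Il33 and the protease inhibitor gene Slpi were called higher. Slpi had 126 and 185 counts in shNC (0.70, interval 0.28 to 1.16) and 432 and 595 in shFAK (0.56). Slpi was not called without the length trend (0.51). None of 7 angiogenic factors was called, among them Vegfb with 1081 and 1306 counts (0.43) and Pdgfb with 21 and 35 (0.83, -0.16 to 2.02).

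Of 10 keratins and squamous genes only Krt13 was called; Krt7 had 1963 and 2243 counts (0.35) and Krt15 205 and 254 (0.46). Of 14 junction genes, the claudin gene Cldn3 was called higher, with 9603 and 13070 counts (0.60, interval 0.55 to 0.65). The tight junction scaffold gene Tjp1 was called lower, with 4412 and 2565 (-0.62, -0.72 to -0.53). Neither was called with the length trend taken off (0.41 and -0.44).

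Of 23 matrix genes, Mgp was called higher and Col12a1, Lama3 and Lamc1 lower, with 18 of the 23 below 0. Lamc1, the shared gamma chain of laminins, had 4664 and 2737 counts (-0.61), and the collagen gene Col12a1 1906 and 1087 (-0.65). Without the length trend Mgp alone was called, and 10 of the 23 were above 0. Of 27 integrin and adhesion plaque genes, 19 were below 0 and Vcl was called lower, with 5005 and 2696 counts (-0.73, and -0.54 and not called without the trend). The median of that list was -0.13, and with the length trend taken off it was 0.01, with 14 of the 27 above 0. Vcl encodes vinculin, which links adhesions to actin. None of 25 targets of the mechanosensitive factors YAP and TAZ was called (median -0.17, or -0.07 without the trend). Fn1, the fibronectin gene, had 75384 and 50151 counts (-0.43, and -0.15 without the trend). Ptk2 itself had 3547 and 3158 counts in shNC (-0.01, interval -0.10 to 0.08) and 1294 and 1248 in shFAK.

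None of 29 DNA replication genes (median 0.06), 30 mitosis genes (-0.08), 31 cholesterol and fatty acid synthesis genes (-0.17), 20 glycolysis genes (0.06), 30 chaperones (0.05), 23 p53 and apoptosis genes (0.02) or 12 interferon-stimulated genes (0.12) was called. Mki67, the proliferation marker, had 9793 and 6393 counts (-0.46), and -0.21 without the trend. Of 26 genes of the integrated stress response and amino acid synthesis, Cebpb alone was called.

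Lists of short and of long genes stood at the ends. Of 82 cytosolic ribosomal protein genes, 80 were above 0, with a median of 0.31, or 0.18 without the length trend, and 0.01 in shFAK. Of 77 mitochondrial ribosomal protein genes 72 were above 0 (0.23, 0.16 and 0.01 in the same order), as were 76 of 79 nuclear genes of the respiratory chain (0.30, 0.14 and 0.03). The 22 LSM and small nuclear ribonucleoprotein genes, which form spliceosome particles, were all above 0 (0.22, 0.13 and -0.04). Of 34 proteasome genes 31 were above 0 (0.15, 0.10 and -0.04). These lists had positive medians in shNC also with length, GC content and span taken off together, and under the other scalings tried. In length deciles 2, 3 and 4, which hold the median lengths of these lists, 80.5%, 75.9% and 69.7% of all genes were above 0. With the length trend taken off, 72 of the 82, 66 of the 77, 73 of the 79, 21 of the 22 and 24 of the 34 were above 0.

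Among cytosolic ribosomal protein genes 3 were called higher (Rpl30, Rpl7a, Rpl21) and 1 lower (Rps27a), all with 11 or more near-identical copies. In the respiratory chain Atp5k alone was called, with 2199 and 2963 counts (0.59), and not without the trend (0.37). Mrpl52, a subunit of the mitochondrial ribosome, had 1620 and 2131 counts (0.55), and Lsm4 10134 and 12788 (0.50). Ribosomal protein genes took 6.52% of all counts in shNC vehicle and 7.86% in shNC norepinephrine, against 5.58% and 5.85% in shFAK.

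At the other end were large genes. All 15 genes of a list of mTOR and very large ubiquitin ligases and proteases were below 0, and 7 were called lower. Their median was -0.55 in shNC, -0.19 with the length trend taken off and -0.27 in shFAK. Usp34, a deubiquitinase, had 3125 and 1542 counts (-0.86), and the ubiquitin ligase gene Huwe1 13780 and 7855 (-0.65). Of 63 chromatin modifiers 58 were below 0 and 6 were called lower, with medians of -0.30, -0.04 and -0.14. The histone methyltransferase genes Kmt2a, with 2809 and 1456 counts (-0.79), and Kmt2c, with 1761 and 921 (-0.77), were among them. None of the calls in these lists was made with the length trend taken off. Under that correction 25 of the 63 chromatin modifiers and 1 of the 15 genes of the other list were above 0. Over all genes of the longest length decile, 12.4% were above 0 before the correction.

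**Figure D5:**
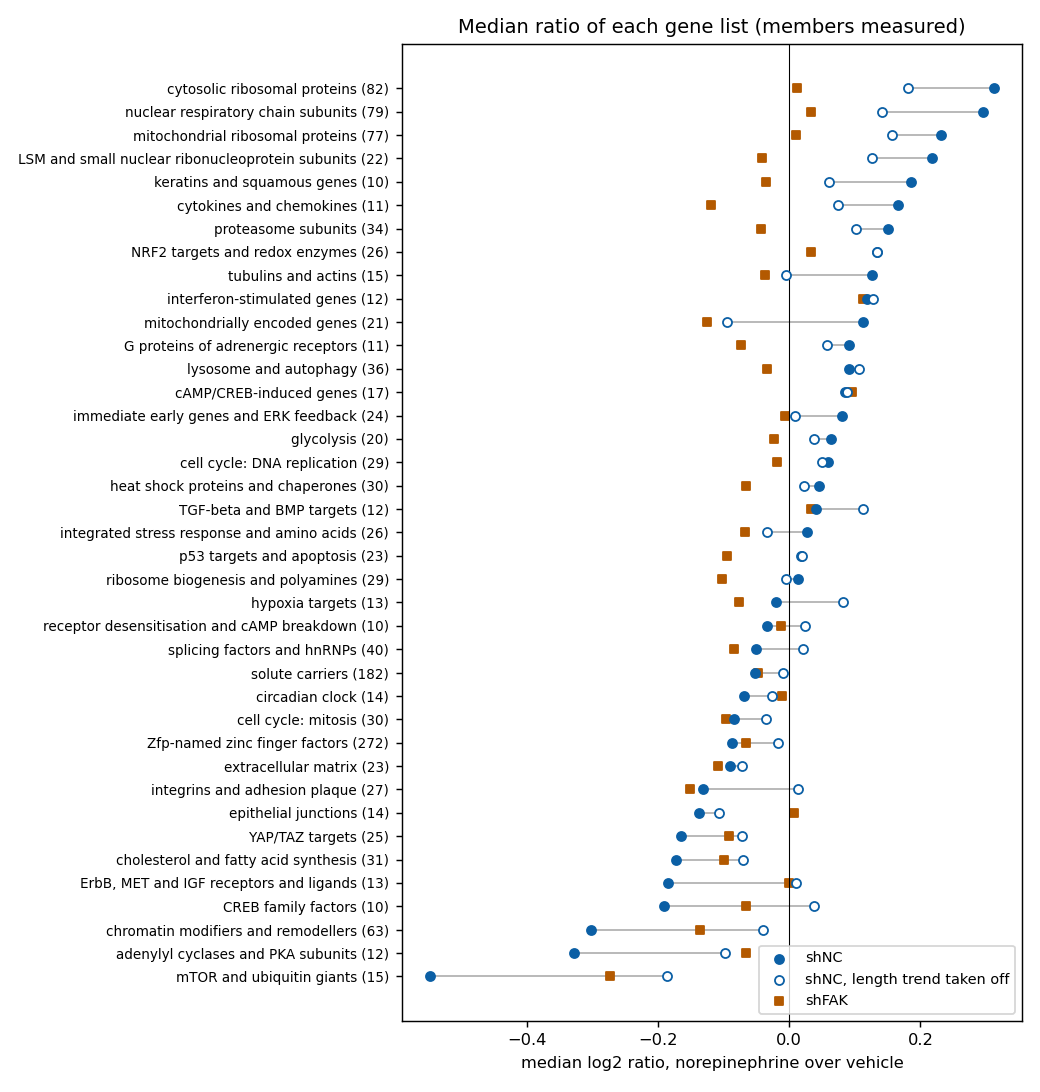
Median log2 ratio of norepinephrine over vehicle for each gene list with 10 or more kept members (number in brackets), in shNC as filled blue circles, in shNC with the length trend taken off as open circles and in shFAK as orange squares. The cytosolic ribosomal protein genes are highest at 0.31 and the mTOR and ubiquitin genes lowest at -0.55, and for most lists the open circle lies closer to 0 than the filled one.

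Of 272 zinc finger genes named Zfp, 1 was called higher and 10 lower (median -0.09), and with the trend taken off 2 and 6 (median -0.02). Zfp292 had 852 and 436 counts (-0.80). Of 182 solute carriers 2 were called in each direction (median -0.05). Slc25a30, a mitochondrial carrier, had 2160 and 1278 counts in shNC (-0.60, and -0.76 without the trend) and 2325 and 1975 in shFAK (-0.13). Of 26 redox enzymes and NRF2 targets none was called. The median of that list was 0.13 both with and without the length trend, and 0.03 in shFAK. Of 36 lysosome and autophagy genes none was called (0.09).

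Genes other than protein-coding ones made up 1406 of those kept. The 610 processed pseudogenes, intronless copies with a median length of 630.5 bases, had a median of 0.14, with 46 called higher and 18 lower. The median was -0.06 with the length trend taken off. Of 202 long intergenic noncoding RNA genes, 4 were called higher and 14 lower (median -0.02, or -0.12 without the length trend). Of 179 antisense genes 3 were called higher and 15 lower (median -0.06, or -0.18 without the trend). Over all kept genes 1.72% were called higher and 2.01% lower. Reads of antisense genes cannot be told from those of the genes they overlap without strand.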

How the data were processed

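RNA-seq read counts per gene were deposited by the authors as 1 table with gene length, biotype and coordinates for 4 libraries, 1 per group. The tools named are featureCounts 1.5.0-p3 and HISAT2 2.0.5, with the genome build mm10, per the submitters' processing notes. Libraries came from a NEBNext Ultra kit, per the labels' protocols, which does not mark strand. Annotation release and handling of multi-mapping reads are not given in the sources used here. Columns were matched to samples by title, and 0 per-sample columns were unused.

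From the counts, effective library sizes were computed by TMM over the 4 libraries (edgeR 4.0.16, R 4.3.3). Log2 ratios of scaled CPM used a prior count of 2. Counting intervals were exact 99% Clopper-Pearson intervals. They cover counting error only, since each side had 1 library. PCR reads that carry no molecular identifier may copy 1 molecule, and the intervals do not allow for this. The length trend was a robust natural cubic spline with 5 degrees of freedom (statsmodels 0.14.6). A near-identical copy was a second GENCODE M21 gene that matched 100 bases or more, and 30% of a transcript, at 95% identity or higher (minimap2 2.31). Of the genes of the whole count table that are in that release, 95.2% had equal coordinates. Promoters came from RefSeq on GRCm38.p6.

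No test between conditions was made. Described genes were Ptk2 and the adrenergic receptors; the 12 largest per direction among qualifying genes as set out in the text; up to 4 members per list with the largest ratio; and up to 6 per direction called in both pairs. Some genes and some of the 53 lists the rule covers are not reported here. The comparison, its genes and the lists were chosen with earlier results of these data known. The computations were tested on simulated data. Alternatives were other scalings (DESeq2 1.42.0 size factors among them), filters, prior counts, thresholds and trends; the span trend and the mean CPM filter were added after the data had been seen.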

Additional observations from a re-analysis of the deposited data

Results flagged for a closer look

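Of the protein-coding genes with a mean of at least 5 CPM in shNC, 2 were called in both pairs in opposite directions, and the difference between the lines was not tested. Rpl30, a ribosomal protein gene, had 1342 and 3849 counts in shNC vehicle and norepinephrine and 3198 and 961 in shFAK, log2 ratios of 1.68 and -1.63. It has 15 near-identical copies and shares 748 exonic bases with another gene. Gm4353 had 147 and 216 counts in shNC and 120 and 57 in shFAK, log2 ratios of 0.71 and -0.95, and has 1 near-identical copy. Rpl30 was also called in shNC with the length trend taken off (1.61), and Gm4353 was not (0.54).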

How the results depend on the processing

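The counts of 206 genes higher and 241 lower became 120 and 154 with at least 5 CPM in either library, 102 and 145 with a mean of at least 5 CPM, 46 and 51 at a 2-fold threshold, 137 and 166 among protein-coding genes, and 127 and 178 without genes that have a near-identical copy. With the length trend taken off they were 120 and 176, and with length and GC, or length, GC and span, 101 and 167. Total-count scaling gave 155 and 318. The Spearman correlation of -0.51 with length was -0.15 with no filter, -0.62 with either 5 CPM filter, -0.59 among protein-coding genes and -0.54 without copied genes. It was 0.0005, 0.0006 and 0.0012 with length, length and GC, or length, GC and span taken off, which these settings do by construction. For the other shifts the cause was not tested. At 2-fold, Npy, Krt13 and Acyp2 of the 12 described higher genes and Zfp871, Lnpep, Atp7a, Lcor and Hipk2 of the 12 lower ones were past the threshold. Of these 24 genes, 18 were called in each of the 13 settings that kept the 1.5-fold threshold. With length and GC taken off 5 were lost, and with span added 6. The filter, protein-coding, copy and length-only settings could not lose a call, because the rule that chose the genes already held them.

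No paired analysis was possible because the titles carry no replicate numbers and each group has 1 library, and no library can be left out for the same reason. Genes of few counts have wide intervals, and variation between cultures is unknown.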
